A study of Mus musculus with 79 samples.

Results

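10 genes of the amyloid precursor pathway were followed in the brains of APP/PS1 mice: App itself, its paralogs Aplp1 and Aplp2, the secretase genes Bace1, Adam10, Ncstn, Aph1a and Psenen, and the amyloid-degrading enzymes Ide and Mme. The members were taken as all probes annotated to these genes, which gave 10 of 12739 named genes and 12 probes of the 25697 probes on the array, 17800 of which carry a single gene symbol. Nicastrin (Ncstn) has 3 probes and each other gene has 1.

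The arrays were Illumina mouse bead arrays hybridised with RNA from 40 female mice. 4 groups were compared. APP/PS1 mice that received an antisense oligonucleotide (ASO) against CD33 gave 9 hippocampal and 10 frontal cortical arrays, APP/PS1 mice that received a control ASO without a target gave 11 and 11, APP/PS1 mice that received the PBS vehicle gave 8 and 8, and wild-type (WT) littermates that received PBS gave 11 and 11. Every animal, WT included, carried a cannula into the right lateral ventricle and an osmotic pump, so surgery was common to all groups. The pumps delivered 75 µg of ASO in 6 µL daily over 14 days, starting when the mice were 18 weeks old, and tissue of the left hemisphere was collected at about 20.5 weeks. Collection was 17 days after surgery, except for 3 CD33 ASO mice, taken at 13 (2 mice) and 16 days, and 1 APP/PS1 PBS mouse, taken at 14 days. APP/PS1 mice carry human transgenes under the neuronal Thy1 promoter, so they model amyloid deposition driven by overexpression. The probes were designed against mouse transcripts. Probe sequences were not used here, so whether the App probe also reads the human transgene is unknown.

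App encodes a membrane protein that is cut along competing routes. Cleavage by alpha-secretase, for which Adam10 is the main neuronal enzyme, releases a soluble ectodomain and precludes amyloid-beta formation, whereas cleavage by the beta-secretase Bace1 followed by the gamma-secretase complex releases amyloid-beta. Nicastrin, Aph1a and Psenen are subunits of gamma-secretase next to its catalytic presenilin. The insulin-degrading enzyme Ide and the cell-surface peptidase neprilysin (Mme) degrade the released peptide. Aplp1 and Aplp2 are processed by the same enzymes but lack the amyloid-beta sequence.

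The start regions of App and its 2 paralogs are shown, that of App because it was the one member called between groups of mice and those of the paralogs to set beside it. RefSeq promoters (250 bases before to 50 after the start, build GRCm38.p6) were matched by symbol for 9 of the 10 members, 12 promoters in all. Whether the single Ide entry is the main start of that gene was not established, so it is counted but not shown. App lies at chr16:85173658-85173957, Aplp1 at chr7:30445533-30445832 and Aplp2 at chr9:31211799-31212098, all on the minus strand. Capitals mark the GC box GGGCGG, searched on both strands.
App: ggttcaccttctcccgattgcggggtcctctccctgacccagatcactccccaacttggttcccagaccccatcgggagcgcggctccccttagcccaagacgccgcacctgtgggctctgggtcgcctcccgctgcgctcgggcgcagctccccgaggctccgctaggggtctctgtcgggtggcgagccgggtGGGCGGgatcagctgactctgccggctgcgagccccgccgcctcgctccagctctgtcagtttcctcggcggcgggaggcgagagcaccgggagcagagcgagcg
Aplp1: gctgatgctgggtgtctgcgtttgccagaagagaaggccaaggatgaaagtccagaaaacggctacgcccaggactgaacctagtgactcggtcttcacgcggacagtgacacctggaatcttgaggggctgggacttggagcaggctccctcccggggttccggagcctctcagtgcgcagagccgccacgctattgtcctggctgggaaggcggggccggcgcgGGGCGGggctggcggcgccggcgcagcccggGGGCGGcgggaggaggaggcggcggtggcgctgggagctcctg
Aplp2: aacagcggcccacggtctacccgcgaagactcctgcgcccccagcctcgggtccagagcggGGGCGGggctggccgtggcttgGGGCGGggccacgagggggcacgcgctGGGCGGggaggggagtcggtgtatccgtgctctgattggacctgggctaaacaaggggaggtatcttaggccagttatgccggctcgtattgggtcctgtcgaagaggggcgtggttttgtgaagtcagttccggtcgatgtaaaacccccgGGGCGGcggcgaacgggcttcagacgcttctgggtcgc
App held 1 GC box, Aplp1 2 and Aplp2 4, and their GC contents were 71%, 68.7% and 67%, against a median of 52.7% over 32851 promoters. GC content of the other member promoters ran from 44% (Ide) to 73.3% (Adam10). The GC box was present in 8 of the 12 member promoters and in 35.7% of all promoters. Mme and Psenen entered more than once among the 12, and some Mme windows overlap, so the 12 are not independent. The TATA motif TATAAA was found in 0 of the 12 and in 13.6% of all promoters. These matches describe letters in a window and were not tested as binding sites.

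Signals are given as background-corrected, quantile-normalised log2 intensities, and levels were never compared between probes, because probes differ in how they bind. A probe was tested in a tissue when it stood above background (detection p under 0.05) on at least 8 of its arrays, which held for 14923 probes in hippocampus and 14581 in cortex. By that rule 10 of the 12 member probes were tested in hippocampus and 11 of 12 in cortex. The Adam10 probe was above background on 0 of 39 hippocampal and 1 of 40 cortical arrays, so no statement on alpha-secretase mRNA can be made from it. The Mme probe was above background on 7 of 39 hippocampal arrays, of which 2 of 9 were CD33 ASO, 2 of 11 control ASO, 3 of 8 APP/PS1 PBS and 0 of 11 WT PBS, and on 26 of 40 cortical arrays. Called means an adjusted p under 0.05 from limma, with Benjamini-Hochberg adjustment over all probes tested.

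Some facts of the arrays bear on the values that follow. Between 13105 and 14446 probes were detected per array. Hippocampal RNA was hybridised on one set of 5 slides and cortical RNA on another, so tissue and slide cannot be told apart. 7 arrays of 4 animals labelled APP/PS1 (control ASO and CD33 ASO) had Thy1 no higher than the highest WT array of the same tissue, whereas every APP/PS1 PBS array was above it. The transgenes of this line are driven by Thy1 sequence, so member values were also computed without these animals. In the 6 comparisons that involve an ASO group, no member difference moved by more than 0.119, 5 of them changed sign and the calls were the same. Cd33 was lower in CD33 ASO mice than in control ASO mice in both tissues (4.78 ± 0.24 against 6.49 ± 0.27 in hippocampus, 5.59 ± 0.53 against 6.86 ± 0.22 in cortex; log2, SD), and without these animals too (4.8 ± 0.25 against 6.44 ± 0.17 in hippocampus, 5.80 ± 0.31 against 6.94 ± 0.13 in cortex). The Cd33 probe was above background on 2 of 9 hippocampal arrays of CD33 ASO mice. In bulk tissue, fewer cells of a type and less RNA per cell cannot be told apart.

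App was the one member called in any comparison between groups of mice. Its hippocampal signal was lower in control ASO mice than in APP/PS1 mice given PBS, and stood between them in CD33 ASO mice. The lowest, median and highest arrays read 12.46, 12.59 and 12.81 in CD33 ASO mice, 12.24, 12.40 and 12.84 in control ASO mice, 12.55, 12.71 and 12.88 in APP/PS1 PBS mice, and 12.49, 12.66 and 12.74 in WT PBS mice. The control ASO group had the lowest median, and its range overlapped that of every other group. 2 of its 11 arrays, at 12.67 and 12.84, stood above the rest of the group, of which the highest read 12.48. App averaged 12.44 ± 0.17 in control ASO mice and 12.70 ± 0.12 in APP/PS1 PBS mice (SD, n = 11 and 8). The log2 difference was -0.25 (SE 0.058, 95% CI -0.37 to -0.14, limma adjusted p = 0.00396), a fold of 0.839. It was the only call among the 10 tested members, in a comparison where 11.4% of all probes were called and 5.65% were called lower.

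**Figure D1:**
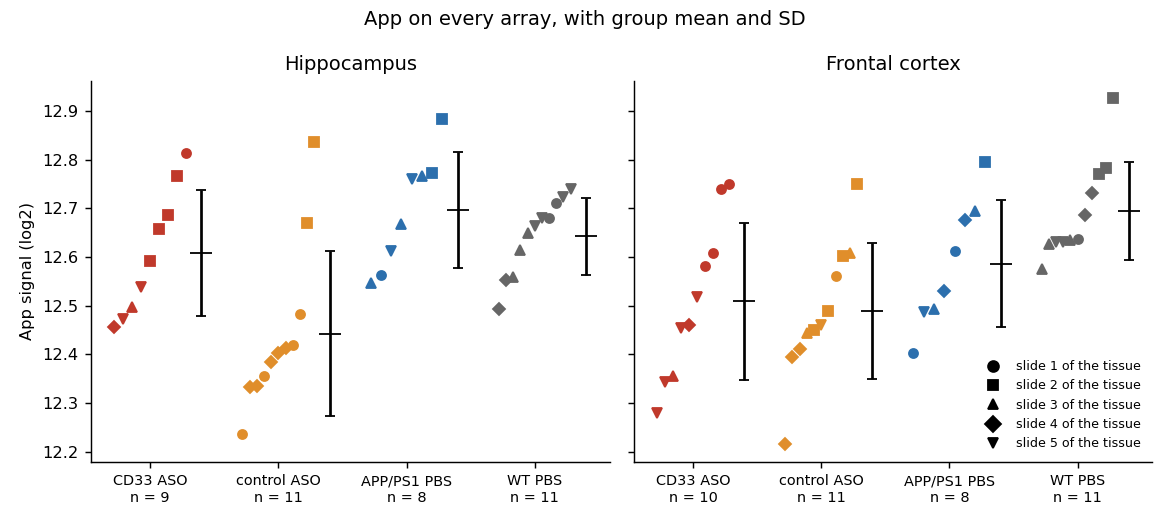
App signal (log2) on every array of the 4 groups in hippocampus and in frontal cortex. Marker shapes give the slide of the array within its tissue, and the black bar gives the group mean and SD. In hippocampus the control ASO arrays lie low, at a median of 12.40, except for 2 arrays on slide 2.

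Groups were spread unevenly over slides, and the part of slide in this difference was not tested beyond the values that follow. The 2 highest control ASO arrays were both on slide 2, and 5 of the 11 control ASO arrays were on slide 4, which held no APP/PS1 PBS array. Within the slides that held both groups, the difference was -0.19 on slide 1 (4 control ASO arrays, 1 PBS array) and -0.08 on slide 2 (2 arrays each). With slide as a block the difference was -0.20 (adjusted p = 0.0553), and with median centring in place of quantile normalisation it was -0.11 (adjusted p = 0.289), so the call was lost under both and the sign under neither. Without the 4 animals of low Thy1 it was -0.22 (adjusted p = 0.0157), and the call held with each single animal left out. With median centring Aplp2 was called in place of App, at 0.20 (adjusted p = 0.0202).

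Cell type markers moved in the same comparison, and their part in the App difference was not tested. Of the 6 neuronal markers tested, 1 was called higher and 1 lower, with a median of -0.04, and their summed signal ran between 28690 and 31100 in control ASO mice and between 29390 and 32100 in APP/PS1 PBS mice. Of 7 microglial markers, 3 were called higher, and their sum ran between 5144 and 9450 in control ASO mice and between 3580 and 5484 in APP/PS1 PBS mice. Of 5 oligodendrocyte markers, 2 were called lower, and their sum ran between 23100 and 29630 in control ASO mice and between 24550 and 32440 in APP/PS1 PBS mice. The 5 choroid plexus markers had a median difference of -1.20 with 0 called by limma and 3 at an unadjusted p under 0.05, and their sum ran between 2809 and 32350 in control ASO mice and between 8840 and 35700 in APP/PS1 PBS mice. All 5 were detected in both groups.

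The other members of the hippocampal comparison of control ASO with PBS did not pass the adjustment, although 5 of the 10 tested probes, App included, had an unadjusted p under 0.05. Psenen, the smallest gamma-secretase subunit, read 10.85, 10.96 and 11.44 (lowest, median, highest) in control ASO mice and 10.92, 11.26 and 11.39 in APP/PS1 PBS mice. Its difference was -0.18 (SE 0.067, adjusted p = 0.0746). Aph1a, another subunit, differed by -0.18 (adjusted p = 0.128), the Ncstn probe ILMN_2914418 by -0.13 (adjusted p = 0.172) and Bace1 by -0.17 (adjusted p = 0.176). Aplp2, by contrast, differed by 0.07 (adjusted p = 0.253). Single animals decided some of these values. Without PBS replicate 1, Psenen passed at -0.22 (adjusted p = 0.0229) and Aph1a at -0.22 (adjusted p = 0.0488). Psenen also passed without control ASO replicate 6 (adjusted p = 0.0159), and Bace1 passed at -0.24 without PBS replicate 3 (adjusted p = 0.0465), the PBS mouse collected at 14 days. Psenen passed with array weights (adjusted p = 0.0288) and with the replicate number as a block (adjusted p = 0.0399) as well. The median over the 10 probes was -0.09, against 0.01 over all probes tested.

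Between the 2 oligonucleotides, 0 of 10 member probes were called in hippocampus, where 3.53% of all probes were, and 2 of 10 had an unadjusted p under 0.05. Those were App and Psenen. App was 0.17 higher in CD33 ASO mice than in control ASO mice (SE 0.056, 95% CI 0.05 to 0.28, adjusted p = 0.0831). Psenen averaged 11.22 ± 0.10 in CD33 ASO mice and 11.04 ± 0.17 in control ASO mice (SD, n = 9 and 11), a difference of 0.17 (adjusted p = 0.123). With single animals left out, App stayed between 0.14 and 0.21 and Psenen between 0.15 and 0.21, and some of these fits called them. Without the control ASO animal with the highest App array (replicate 6), App was 0.21 higher (adjusted p = 0.0102) and Psenen 0.21 higher (adjusted p = 0.0285). App also passed without control ASO replicate 5 (0.19, adjusted p = 0.0375), without CD33 ASO replicate 7 (0.19, adjusted p = 0.0479) and with array weights (0.18, adjusted p = 0.0419). Without the animals of low Thy1 it was 0.15 (adjusted p = 0.186). Within the 3 slides that held both groups, the App difference was 0.44, -0.08 and 0.08, so it did not keep its sign. With slide as a block it was 0.08 (adjusted p = 0.608). The remaining members differed by between -0.14 (the dim Ncstn probe ILMN_1212949) and 0.14 (Aph1a), and Bace1 by 0.01 (95% CI -0.15 to 0.17).

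Set against PBS, CD33 ASO left 0 of 10 member probes called in hippocampus, against 4.96% of all probes, with 1 at an unadjusted p under 0.05. That was the Ncstn probe ILMN_2914418, at -0.16 (adjusted p = 0.167). It read 7.0, 7.23 and 7.42 in CD33 ASO mice and 7.19, 7.39 and 7.57 in APP/PS1 PBS mice, ranges that overlap. The other well-detected Ncstn probe, ILMN_2914416, differed by -0.07 (adjusted p = 0.57). App differed by -0.09 (95% CI -0.21 to 0.03, adjusted p = 0.512) and Bace1 by -0.16 (adjusted p = 0.365). This comparison, the one of control ASO with PBS and the genotype comparison share the same 8 APP/PS1 PBS arrays.

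In frontal cortex no member was called between treatments. Against control ASO, CD33 ASO gave 0 of 11 (0.322% of all probes, 1 member at an unadjusted p under 0.05), against PBS 0 of 11 (1.49% of all probes, 1 at an unadjusted p under 0.05), and control ASO against PBS 0 of 11 (0.926% of all probes, 0 at an unadjusted p under 0.05). The unadjusted passes were both Aplp1, a paralog expressed mainly in neurons. Aplp1 read 11.08, 11.17 and 11.43 (lowest, median, highest) in CD33 ASO mice, 11.22, 11.35 and 11.48 in control ASO mice, 11.21, 11.33 and 11.80 in APP/PS1 PBS mice, and 11.15, 11.43 and 11.62 in WT PBS mice. The CD33 ASO median was the lowest and its range overlapped each other group. The difference was -0.13 against control ASO (adjusted p = 0.489) and -0.18 against PBS (SE 0.064, adjusted p = 0.161). Aplp1 was lower in CD33 ASO mice on 4 of 4 shared cortical slides in each of these comparisons. In hippocampus Aplp1 was lower on 3 of 3 slides against control ASO and 4 of 4 against PBS. Each cortical slide shared with control ASO held 1 array of one of the groups, as did some of the other slides. The same CD33 ASO arrays serve both comparisons, so these slide counts are not independent and are a description. Its hippocampal differences were -0.03 and -0.09, neither called.

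App in frontal cortex read 12.28, 12.49 and 12.75 in CD33 ASO mice, 12.21, 12.46 and 12.75 in control ASO mice, 12.40, 12.57 and 12.80 in APP/PS1 PBS mice, and 12.58, 12.64 and 12.93 in WT PBS mice. The 2 ASO groups covered nearly the same range. Control ASO differed from PBS by -0.10 (95% CI -0.22 to 0.02, adjusted p = 0.658), and within the 5 slides the difference lay between -0.26 and 0.05. The test of whether the control ASO difference in App was unlike in the 2 tissues gave -0.16 (hippocampus minus cortex, adjusted p = 0.345), so a difference confined to hippocampus was not shown. In that interaction 0 of 11 members were called, against 0.203% of all probes, with 2 at an unadjusted p under 0.05. The interactions of the other contrasts also had 0 of 11 called, against 0.00654%, 0.124% and 0.32% of all probes, with 1, 0 and 0 members at an unadjusted p under 0.05.

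The genotype comparison asks whether the transgenes go with a change in the mouse genes of the same pathway. 0 of 10 member probes were called between APP/PS1 PBS and WT PBS mice in hippocampus, against 0.952% of all probes, and 0 of 11 in cortex, against 4.18% of all probes, with 0 at an unadjusted p under 0.05 in either tissue by limma. The median over members was 0.04 in hippocampus and 0.00059 in cortex, against -0.01 and -0.03 over all probes. App differed by 0.05 (95% CI -0.06 to 0.17) in hippocampus and by -0.11 (95% CI -0.23 to 0.01, adjusted p = 0.408) in cortex, where it was lower on 5 of 5 slides. The Ncstn probe ILMN_2914416 differed by 0.07 (95% CI -0.03 to 0.18, adjusted p = 0.772) in hippocampus and by 0.06 (95% CI -0.04 to 0.16, adjusted p = 0.61) in cortex, and was higher on 3 of 3 and 5 of 5 slides. Some of these slides held 1 array of a group, so the slide counts are a description. Bace1 read 9.01, 9.55 and 9.70 in hippocampus of APP/PS1 PBS mice and 9.04, 9.42 and 9.64 in WT PBS mice, and the groups overlapped. Its difference was 0.13 (95% CI -0.04 to 0.29) in hippocampus and 0.08 (95% CI -0.13 to 0.29) in cortex. The intervals of Aplp2 were the narrowest, -0.08 to 0.07 in hippocampus and -0.10 to 0.09 in cortex, and those of Ide were wide, -0.44 to 0.28 and -0.29 to 0.43.

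**Figure D2:**
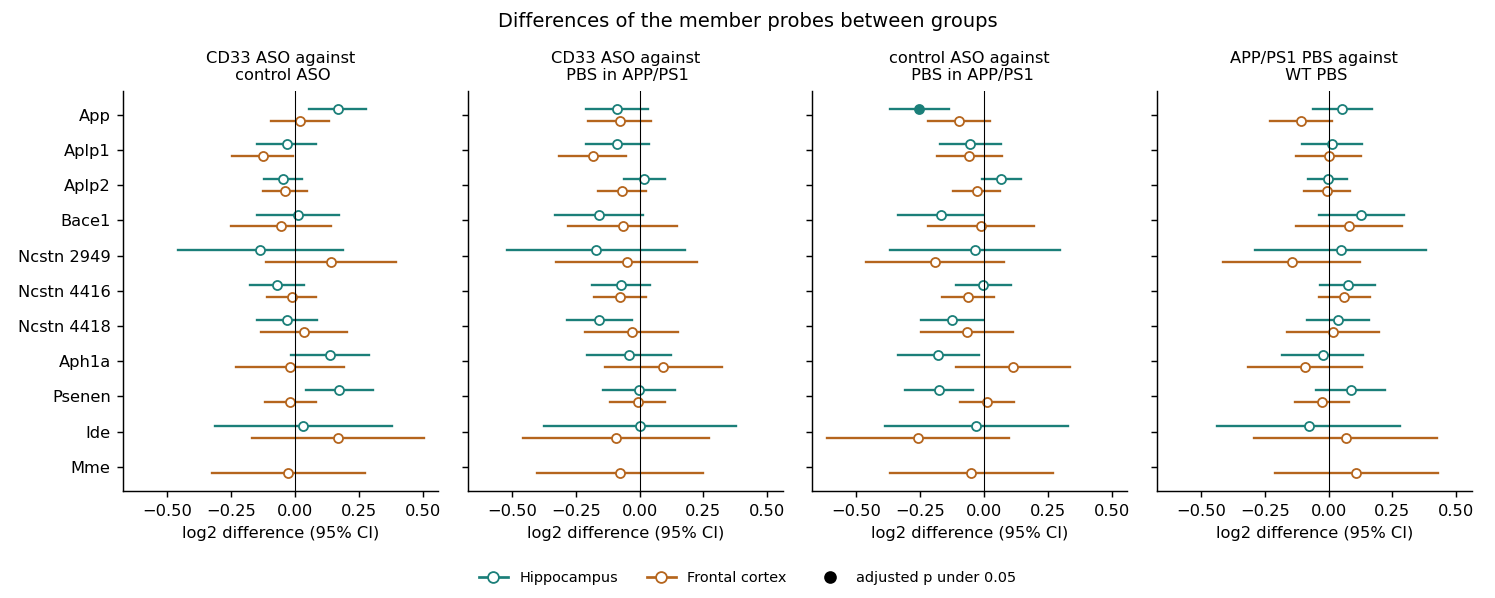
Log2 differences of the member probes (points) with 95% confidence intervals (lines) in 4 comparisons, hippocampus above cortex for each probe; Adam10 was not tested and Mme was tested in cortex only. The filled point, App in hippocampus of control ASO against PBS mice at -0.25, is the one with an adjusted p under 0.05.

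Between the tissues 4 of 11 tested member probes were called, all lower in hippocampus, in a comparison where 61.9% of all probes were called and 30.1% were lower. The share of members was 36.4%. Neprilysin (Mme) averaged 4.87 ± 0.20 in hippocampus and 5.28 ± 0.35 in cortex (SD, n = 39 and 40), with a difference of -0.40 (SE 0.062, limma adjusted p = 2.9e-08 with animal as a block). The tissue test took probes that passed the filter in either tissue, and Mme passed in cortex only, where it is higher. Its call is therefore a description. The hippocampal values lie near the floor, since most hippocampal arrays did not stand above background for Mme, and a larger offset of 50 brought the difference to -0.21. Aplp2 averaged 12.95 ± 0.08 in hippocampus and 13.10 ± 0.10 in cortex, with a difference of -0.15 (adjusted p = 1.05e-10). That call was lost with median centring and in the authors' table, which was normalised within each tissue separately and so sets the tissues on no common scale.

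The 3 Ncstn probes were all lower in hippocampus as a point estimate. ILMN_2914418 differed by -0.19 (adjusted p = 3.23e-06), ILMN_2914416 by -0.06 (adjusted p = 0.0188) and the dim ILMN_1212949 by -0.11 (adjusted p = 0.182). The sign of ILMN_2914416 turned with median centring, to 0.0654, and its call was lost without the animals of low Thy1 (-0.05, adjusted p = 0.0505), where Aplp2, Mme and ILMN_2914418 kept theirs. With WT arrays alone, Aplp2 and Mme were called and neither Ncstn probe was. Across arrays the 3 probes did not move together: the correlation of deviations from the group means was 0.15 in hippocampus and 0.43 in cortex for the 2 brighter probes, and -0.31 and -0.35 between ILMN_2914418 and the dim one. App, Aplp1, Aph1a, Psenen, Bace1 and Ide were not called between the tissues, but median centring called App (0.12, adjusted p = 0.00232), Psenen (0.12, adjusted p = 0.00218) and Aph1a (0.15, adjusted p = 0.00741) higher in hippocampus. Marker lists differed between the tissues too, and their part was not tested: 5 of 5 choroid plexus markers were higher in hippocampus (median 3.11) and 4 of 4 striatal markers were lower (median -1.85), while 5 of 6 neuronal and 7 of 7 microglial markers were lower.

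**Figure D3:**
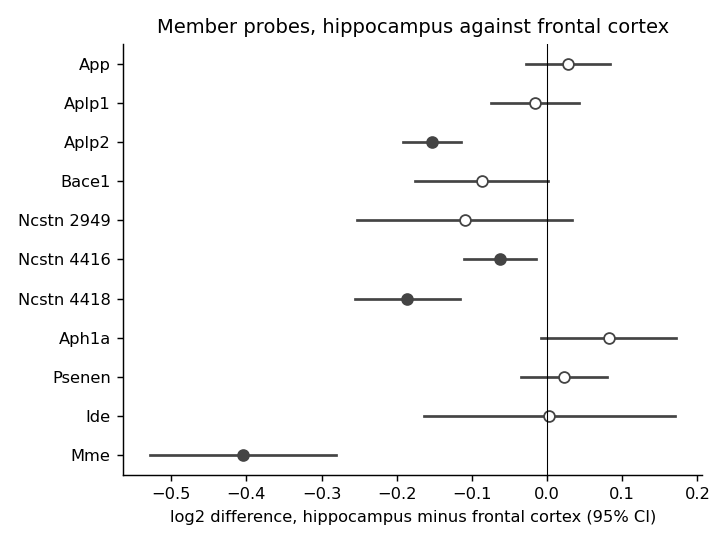
Log2 difference of each member probe, hippocampus minus frontal cortex, with 95% confidence interval. Filled points have an adjusted p under 0.05. Mme, which passed the detection filter in cortex only, is farthest from 0 at -0.40, and Ide lies at 0.

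Ide had the highest within-group spread of the tested member probes in each tissue. Its hippocampal signal ran from 8.08 to 9.60 over 39 arrays, a 2.88-fold range, and its cortical signal from 8.04 to 9.85 over 40 arrays, a 3.5-fold range. The within-group SD was 0.42 in each tissue, against a median over all probes of 0.21 in hippocampus and 0.22 in cortex, and 2.51% and 2.74% of probes were as variable. The dim Ncstn probe ILMN_1212949 came near it in hippocampus, with an SD of 0.38 and a range of 1.50 against 1.53 for Ide on the log2 scale, and Mme in cortex had an SD of 0.36. No group separated. In hippocampus the lowest, median and highest arrays read 8.17, 9.04 and 9.50 in CD33 ASO mice, 8.38, 8.81 and 9.49 in control ASO mice, 8.60, 8.89 and 9.30 in APP/PS1 PBS mice, and 8.08, 9.03 and 9.60 in WT PBS mice. The largest group difference was -0.26 in cortex of control ASO against PBS mice (95% CI -0.62 to 0.10, adjusted p = 0.706), so differences of that size were not resolved. Within slides, Ide was higher in CD33 ASO than in control ASO mice on 3 of 3 hippocampal slides, by 0.34 to 0.78. In cortex Ide was higher on 4 of 4 slides, by 0.10 to 0.66. Without slide in the fit these differences were 0.03 and 0.17, neither called. Each of these cortical slides, and hippocampal slides 1 and 4, held 1 array of one of the groups. The single CD33 ASO arrays on hippocampal slides 1 and 4 read 9.50 and 9.48, the highest of their group. The 2 tissues came largely from the same animals, so their slide counts are not independent. With slide as a block Ide was not called in either tissue, and the part of slide was not tested further.

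Ide values agreed between the 2 tissues of an animal. They were compared across 39 animals with both tissues, with a Pearson r of 0.835 and a Spearman rho of 0.813 (permutation p = 1e-05 each, the smallest that 100000 resamples can give). 12 such relations were computed, 1 per member probe. Without the 2 animals farthest from the median r was 0.799, and without the animals of low Thy1 it was 0.848. Within groups r was 0.867 (CD33 ASO), 0.821 (control ASO), 0.714 (APP/PS1 PBS) and 0.878 (WT PBS), and within the 3 surgery sessions 0.762, 0.851 and 0.907. The 2 tissues of an animal were run on separate slides. Over 14214 probes the median r was 0.121, and 0.401% of probes had an r as high. The other 9 member probes tested in both tissues had r between -0.04 and 0.224. In 26 of 39 animals the tissues lay within 0.25 of each other. A WT animal read 8.08 in hippocampus and 8.04 in cortex, while another WT animal read 9.43 and 9.85.

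**Figure D4:**
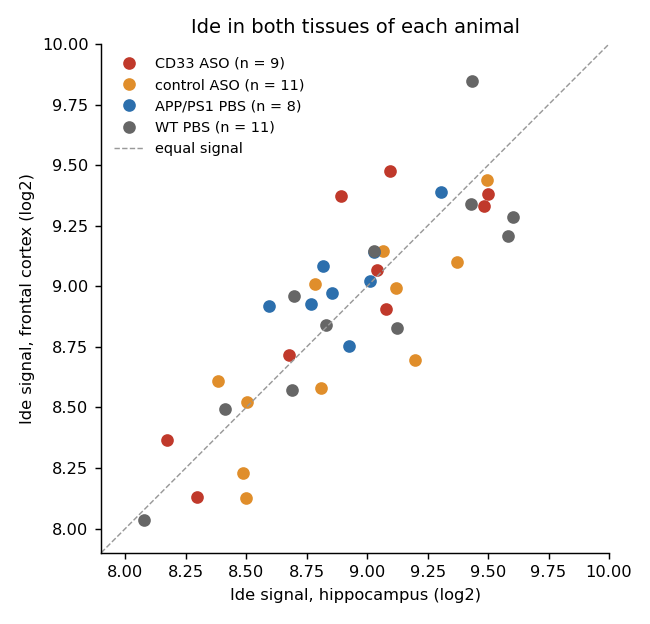
Ide signal (log2) in hippocampus (x) and frontal cortex (y) of the 39 animals measured in both, coloured by group, with a dashed line of equal signal. Animals lie along the line from 8.08 to 9.60 in hippocampus, and the 4 groups are mixed along it.

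Among all other named probes, Fgfbp3 was most like Ide in its deviations from the group means, with r of 0.613 over 39 hippocampal arrays and 0.597 over 40 cortical arrays. Fgfbp3 encodes a binding protein of fibroblast growth factors and lies near Ide on chromosome 19. Its own agreement between tissues was 0.599. The measured probes next to Ide on the chromosome did not follow it: Marchf5 had r of -0.291 and -0.217, Cpeb3 0.0901 and 0.347, and Hhex 0.0477 and 0.303. As background, a copy-number variant that takes in sequence of Ide and Fgfbp3 has been described within the C57BL/6J inbred strain. The labels name no strain and copy number was not measured, so its part here was not tested. These correlations share arrays and are a description.

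The other members each had a different set of most similar probes. App went most closely with Synj2bp (0.631 and 0.725), Elmod1 and Rnf220, Aplp1 with Mast2 (0.677 and 0.739), Snph and Trak1, and Bace1 with Ptprs (0.699 and 0.851), Retreg2 and Hcfc1. Psenen went with both probes of Myl12b (0.741 and 0.698 for the first) and with Bud31. Aplp2 had the lowest within-group spread of the members, an SD of 0.08 in hippocampus and 0.10 in cortex, and its closest probe was Sbf1 (0.461 and 0.496).

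Other genes of the pathway, on lists of substrates, modulators, adaptors and further degrading enzymes, were also followed. Each list gene was read by 1 probe, the tested probe with the highest mean signal, and its other probes are not reported. List counts are thus of genes, and the shares beside them are of all probes. The lists were chosen with earlier results of these data known, so their counts and medians are a description. With genotype in cortex, 3 of 11 tested degrading enzymes rose in APP/PS1 PBS over WT PBS mice and 0 fell, with a list median of 0.28 against -0.03 over all probes. Of all probes 4.18% were called in this comparison, 534 of the 609 of them higher. Plau, the urokinase plasminogen activator, read 5.83, 6.39 and 6.49 (lowest, median, highest) in APP/PS1 PBS mice and 5.04, 5.18 and 5.64 in WT PBS mice, without overlap. Its difference was 1.02 (SE 0.158, adjusted p = 7.23e-06), against SDs of 0.276 in APP/PS1 PBS and 0.186 in WT PBS mice. Plau was above background on 7 of 11 WT PBS arrays, so some WT values lie near the floor. The matrix metalloproteinase Mmp2 rose by 0.42 (adjusted p = 0.0191) and the lysosomal protease cathepsin B (Ctsb) by 0.33 (adjusted p = 0.00133). Of 21 secretase substrates, the adhesion receptor Cd44 rose by 0.46 (adjusted p = 0.0181), measured against WT PBS mice in which it was above background on 2 of 11 arrays. Of 15 modulators the reticulon Rtn1, whose family binds Bace1, fell by 0.17 (adjusted p = 0.0265). The Cd44 call was lost without PBS replicate 6, the Mmp2 call without PBS replicate 5 and with the replicate number as a block, and the Rtn1 call with median centring, with no filter on dim probes and in 5 of 40 fits that left out 1 animal. In the same comparison 7 of 7 microglial markers rose (median 1.23), their sum running between 6255 and 8800 in APP/PS1 PBS mice and between 2549 and 3089 in WT PBS mice, and their part in these changes was not tested.

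0 of 25 adaptors and 0 of 5 other secretase genes were called with genotype in cortex, against 4.18% of all probes. Of the adaptors with the highest signal, Itm2b differed by 0.07 and Sort1 by -0.06. Among the other secretase genes Aph1b differed by -0.04 and Adam17, a further alpha-secretase, by 0.28 (adjusted p = 0.134). In hippocampus 0 genes of the 5 lists were called with genotype by limma, against 0.952% of all probes, with between 0 and 2 per list at an unadjusted p under 0.05. There Ctsb differed by 0.23 (adjusted p = 0.406), Htra1 by -0.08, Rtn1 by -0.08, Tspan3 by -0.03, Cx3cl1 by 0.03, Sez6l by -0.09, Itm2b by -0.02, Sort1 by -0.04, Aph1b by -0.02 and Adam17 by 0.03.

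Ncam1, a neural adhesion molecule cut by secretases, was lower in CD33 ASO mice in every comparison with the other APP/PS1 groups. In hippocampus it averaged 9.49 ± 0.21 in CD33 ASO mice, 9.95 ± 0.18 in control ASO mice, 9.99 ± 0.17 in APP/PS1 PBS mice and 10.11 ± 0.16 in WT PBS mice. The difference was -0.46 against control ASO (adjusted p = 0.000199) and -0.50 against PBS (adjusted p = 7.79e-05). In cortex it read 9.16, 9.45 and 9.71 (lowest, median, highest) in CD33 ASO mice, 9.54, 9.81 and 9.94 in control ASO mice, and 9.93, 9.96 and 10.03 in APP/PS1 PBS mice, so the CD33 ASO and PBS ranges did not overlap. The cortical difference was -0.32 against control ASO (adjusted p = 0.00201) and -0.50 against PBS (adjusted p = 1.06e-06). The 4 calls held under all 13 alternatives and every left-out animal. In the same comparisons with PBS, 4 of 5 oligodendrocyte markers fell in each tissue (median -0.36 in hippocampus, -0.49 in cortex). Their sum ran between 21650 and 26930 in CD33 ASO and 24550 and 32440 in APP/PS1 PBS hippocampus, and between 20410 and 27450 in CD33 ASO and 25250 and 30490 in APP/PS1 PBS cortex, and their part was not tested.

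**Figure D5:**
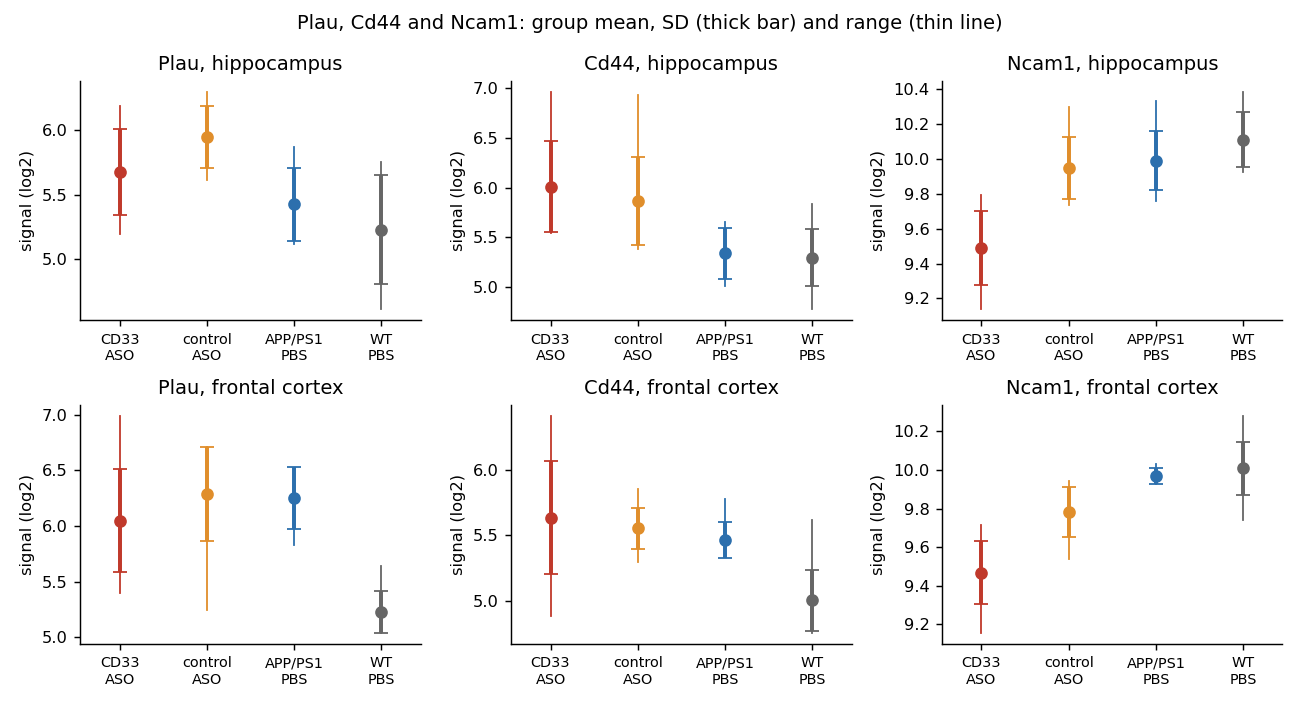
Signal (log2) of Plau, Cd44 and Ncam1 by group in hippocampus (top) and frontal cortex (bottom), as group mean (point), SD (thick bar) and range (thin line). Plau lies lowest in WT PBS cortex, at 5.04 to 5.64, and Ncam1 lies lowest in CD33 ASO mice in both tissues.

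Under CD33 ASO against PBS in hippocampus, 6 of 77 tested list genes were called, against 4.96% of all probes. The serine protease Htra1 rose by 0.27 (adjusted p = 0.0232), the tetraspanin Tspan17 by 0.17 (adjusted p = 0.0285) and Cd44 by 0.67 (adjusted p = 0.0138). The neuregulin Nrg3 fell by 0.53 (adjusted p = 0.000448) and the reelin adaptor Dab1 by 0.32 (adjusted p = 0.0115), besides Ncam1. Cd44 read 5.54, 5.94 and 6.97 in CD33 ASO mice and 5.01, 5.32 and 5.66 in APP/PS1 PBS mice. The 6 calls held without the animals of low Thy1. With median centring the calls of Htra1 (0.30), Tspan17 (0.21) and Dab1 (-0.30) were lost at differences of similar size. The Tspan17 call was also lost in 8 of 39 fits that left out 1 animal, and the Htra1 call without CD33 ASO replicate 5 and without the animals collected on another day (0.26, adjusted p = 0.0738). 4 of 7 microglial markers rose in this comparison (median 0.58), and their part was not tested. In cortex, where 1.49% of all probes were called, the list genes called were Ncam1, Ngfr and Fbln1. Ngfr, the p75 neurotrophin receptor and a secretase substrate, fell by 0.78 (adjusted p = 0.0057). Its cortical mean was 5.80 in CD33 ASO, 6.09 in control ASO and 6.57 in APP/PS1 PBS mice. The difference between CD33 ASO and PBS mice was unlike in the 2 tissues (interaction 0.91, adjusted p = 0.0459). That interaction was not called without the animals of low Thy1, with median centring or with no filter on dim probes. The adaptor ligand Fbln1 rose by 0.48 (adjusted p = 0.0493), a call lost in 33 of 40 fits that left out 1 animal.

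Control ASO against PBS in hippocampus gave 10 called list genes of 77, where 11.4% of all probes were called, and 1 of the 10 calls held with slide as a block. That was Htra1, which rose by 0.33 (adjusted p = 0.00248) and by 0.35 with the block. Those lost with the block were Plau (0.52), Cd44 (0.52), Apba3 (0.29), an App adaptor, Gga1 (0.23), which sorts Bace1, Sez6l (0.17), a Bace1 substrate, and Rtn1 (0.11), which were higher, and Nlgn1 (-0.30), Nrg3 (-0.29) and Scn2b (-0.24), which were lower, with adjusted p between 0.0053 and 0.0492 without the block. With the block the differences of Gga1 (0.32), Nrg3 (-0.37), Nlgn1 (-0.32), Sez6l (0.16), Cd44 (0.45) and Rtn1 (0.10) stayed of similar size or were larger, and those of Plau (0.24), Apba3 (0.10) and Scn2b (-0.07) were smaller. Nlgn1 was above background on 1 of 11 control ASO and 3 of 8 APP/PS1 PBS arrays, so its difference lies near the floor. Without the animals of low Thy1, Htra1, Plau and Sez6l kept their calls. The other 7 lost theirs, at Gga1 0.23, Apba3 0.27, Nrg3 -0.27, Nlgn1 -0.27, Scn2b -0.20, Cd44 0.39 and Rtn1 0.09. Between the 2 oligonucleotides in hippocampus 3 of 77 list genes were called, Ncam1 included, against 3.53% of all probes. Scn2b, a sodium channel subunit and secretase substrate, was 0.27 higher in CD33 ASO mice (adjusted p = 0.0242) and Notch3 0.42 lower on the log2 scale (adjusted p = 0.0229), and both calls were lost with slide as a block (Scn2b 0.14, Notch3 -0.30) and without the animals of low Thy1 (Scn2b 0.22, Notch3 -0.34). In cortex 0 list genes were called between control ASO and PBS by limma, against 0.926% of all probes, with between 1 and 2 per list at an unadjusted p under 0.05.

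Between tissues 61.9% of all probes were called and 30.1% were lower in hippocampus, and the list counts are read against that. The adaptors had 10 of 25 genes higher in hippocampus and 11 lower, led by the growth factor Tgfb2 (1.60) and the sorting receptor Sorcs1 (-1.39). Of the modulators 4 of 15 were higher and 5 lower, Tspan33 (0.91) and Tspan14 (-0.45) among them. Of the other degrading enzymes 2 of 12 were higher, with Ace at 0.38, and 5 lower, with Klk6 at -0.81, Plau at -0.38 and Ece1 at -0.38. Of the other secretase genes 2 of 5 were lower, Adam9 (-0.41) and Adam19 (-0.36). In WT arrays alone the calls of Plau (0.0025) and Adam9 (-0.33) were lost. Of the substrates 7 of 21 were higher, Sez6l (0.60) and Dlk1 (0.55) among them, and 9 lower, with Nrg1 at -0.69.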

How the data were processed

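RNA of hippocampus and frontal cortex from 4 groups of mice was measured on Illumina MouseRef-8 bead arrays. The authors deposited probe intensity values that were not background-corrected or normalised across arrays, with a detection p-value per probe, and a table of log2 values. BeadStudio, GenomeStudio and Partek are named per the submitters' processing notes, without versions; the authors' log2 values matched quantile normalisation within each tissue, and their genome build is not given in the sources used here.

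From the intensities, background was corrected with the detection p-values (limma's normexp scheme, offset 16), arrays were quantile normalised over all 79 and log2 values were taken. Probes above background (detection p under 0.05) on at least 8 arrays of the tissue were fitted per tissue with a 4-group limma model (eBayes with trend; R 4.3.3, limma 3.58.1), with Benjamini-Hochberg adjustment over all probes. Tissue and interaction tests took probes that passed this filter in either tissue, with animal as a random block (correlation 0.0801). p-values measure the spread between animals. The members and lists were chosen with earlier results of these data known. The named genes were all member probes and, from each list, the called genes of the comparisons within a tissue and of the interactions. Between tissues up to 4 called genes of largest change per list were named. In the genotype comparison, where a list had none called, the 2 of highest mean were named. Alternatives were another background step, offset 50, median centring, other filters, slide, session and replicate blocks, array weights, the authors' table and leaving out each animal; 2 were chosen after seeing the data (without low-Thy1 animals, without animals collected on another day). The fits were tested on simulated data with independent noise and no slide effect, unlike the real arrays. Within a tissue, 20.9% to 38.8% of added log2 differences of 0.25 were called, and 5.97% in the interaction simulated. Those shares are averages over probes drawn at random, and shares for single members were not simulated. Most tested member probes in hippocampus spread less than the median probe (SD 0.13 for App against 0.21), and Ide spread more. A member not called is not shown to be unchanged. Replicate numbers did not pair samples: at most 5 of 8 pairs correlated over 0.1. Precision differed between probes as well as with the number of arrays: the within-group SD in hippocampus was 0.08 for Aplp2 and 0.42 for Ide. Detection ranged between 13105 and 14446 probes per array, and the highest correlation between 2 arrays was 0.99563, so no pair of arrays was treated as 1 library.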

Additional observations from a re-analysis of the deposited data

Results flagged for a closer look

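Of 48 groups of member values examined, 1 held an array set far from its group, and chance alone flags about 1 in 20 groups. Control ASO and WT PBS groups, with 11 arrays each, were not examined in this way. Mme in hippocampus read 5.2754 in replicate 3 of the CD33 ASO mice, the highest of 9, and the next array read 4.95. The probe stood above background on that array (detection p = 0.01003). Mme was above background on 2 of 9 arrays of this group and was not tested in hippocampus.

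Ngfr, a secretase substrate on the pathway lists, differed between the tissues in its response to CD33 ASO against PBS. The interaction was 0.91 (hippocampus minus cortex, SE 0.207, limma adjusted p = 0.0459). In hippocampus Ngfr averaged 6.06 ± 0.36 in CD33 ASO mice and 5.93 ± 0.22 in APP/PS1 PBS mice (SD, n = 9 and 8), and in cortex 5.80 ± 0.32 in CD33 ASO mice and 6.57 ± 0.34 in APP/PS1 PBS mice (SD, n = 10 and 8). In control ASO mice it averaged 5.93 ± 0.27 in hippocampus and 6.09 ± 0.315 in cortex, where it too was below the PBS mean. Striatal markers were also lower against PBS in cortex, with 0 of 4 called. Their median was -0.58 with CD33 ASO (4 of 4 at an unadjusted limma p under 0.05) and -0.52 with control ASO (3 of 4). Their part was not tested. The interaction was 0.90 with median centring (adjusted p = 0.0711), 0.91 with no filter on dim probes (adjusted p = 0.105) and 0.81 without the animals of low Thy1 (adjusted p = 0.142), and it was called under the other 3 alternatives run.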

How the results depend on the processing

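Member counts moved in 3 comparisons. In hippocampus, control ASO against PBS gave 1 called member, 0 with slide as a block, and 2 each with array weights, with the replicate block and without the animals collected on another day; leaving out single animals gave 1 to 3. CD33 ASO against control ASO gave 0, 1 with array weights, and 0 to 2 with single animals left out. The other comparisons within a tissue kept 0 called members in each alternative and with each animal left out. Between tissues 4 members were called, 7 in the authors' table and 2 with WT arrays alone. The tissue difference of ILMN_2914416 reversed to 0.0654 with median centring and 0.0931 in the authors' table, and that of Plau to 0.0025 with WT arrays alone. The cause of these moves was not tested. Replicate numbers do not pair the animals, and the replicate block ended no member call.

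All-probe counts in hippocampus moved by over 1.5 times: CD33 ASO against control ASO from 527 called to 262 (median centring), 113 (slide) and 221 (low-Thy1 animals out), CD33 ASO against PBS from 740 to 456 (median centring), control ASO against PBS from 1698 to 121 (slide) and 2600 (array weights), and genotype from 142 to 216 (array weights). In cortex they moved to 28 of 47 (low-Thy1 animals out, CD33 ASO against control ASO), 121 of 217 and 57 of 135 (median centring, CD33 ASO and control ASO against PBS), and between tissues to 5890 of 9471 (WT arrays alone). Single animals moved such counts too, and with them the shares of all probes given beside the member counts: CD33 ASO against control ASO in hippocampus to 326, 329 and 327 without CD33 ASO replicates 4, 6 and 9, control ASO against PBS in hippocampus to 1129 and 1131 without PBS replicates 7 and 8, and CD33 ASO against PBS in cortex to 140 without CD33 ASO replicate 1. Median centring moved the share of called probes that were higher. In hippocampus it was 28.6% with centring and 51% without for CD33 ASO against control ASO, 72.8% and 60.9% for CD33 ASO against PBS, and 82.1% and 50.4% for control ASO against PBS. In cortex the shares were 37.8% with centring and 57.4% without, 31.4% and 46.1%, and 59.6% and 39.3% for the same 3 comparisons, and between tissues 66.8% and 51.4%. Low signal limits Mme, Adam10 and one Ncstn probe.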
